A study of Mus musculus with 7 samples.

Results

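To ask whether the RNAs crosslinked to overexpressed DENR differ from those crosslinked to the endogenous protein, libraries made by iCLIP (crosslinking and immunoprecipitation read at single nucleotides) and labelled Denr overexpressing (n = 3) were set against those labelled non-transfected (n = 2), that is 5 of the 7 libraries of the series. Members were chosen by these labels alone, all sites of their 5 lists were used, and the 2 IgG libraries were not used. The cells in both groups were NIH3T3, a mouse embryonic fibroblast line, and in both groups an anti-DENR antibody was used for the pull-down. The pull-down thus did not select overexpressed over endogenous DENR. The overexpressing cells carried Denr in the vector FLAG-Venus-pLenti6 after a transient transfection, and 1 dish was used. The non-transfected cells expressed only their own Denr, and 6 dishes were used. Transfection, the vector and the amount of starting material therefore cannot be told apart from the level of DENR. Both groups were crosslinked at 254 nm with 150 mJ/cm2 and their lysates were partially digested with RNase I. The labels do not say that replicates were separate cultures, so p-values measure only the spread between these libraries.

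DENR forms a heterodimer with MCTS1 and helps post-termination ribosomes to resume scanning and reinitiate on a downstream reading frame of the same mRNA, after a short upstream open reading frame has been translated. The complex binds the small ribosomal subunit, whose RNA is the 18S rRNA, and is also known to promote the removal of deacylated tRNA from that subunit. In iCLIP, ultraviolet light joins protein and RNA where they touch, and reverse transcription that stops at the remaining peptide marks the crosslinked nucleotide. Each deposited list gives such nucleotides (sites), each with a score, the height of the site.

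The overexpressing lists held 4012, 16137 and 10209 sites with a summed score of 24463, 155677 and 93583. The non-transfected lists held 4324 and 7185 sites with a summed score of 16429 and 68338. List length thus varied within each group, and the ranges of the 2 groups overlapped. Only sites that passed the authors' threshold are listed, so the depth of the libraries is unknown, and a nucleotide outside a list may still have been crosslinked. Values are therefore given as percentages of a list's sites or of its summed score. Together the 5 lists named 23263 distinct positions, and 4435 genes or rRNA copies held at least 1 of them.

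Some of these positions, described further below, are shown first. They are written in DNA letters in the direction of the RNA, with the nucleotide of interest in capitals. On 18S rRNA, counted from nucleotide (nt) 1 of the 1849-nt copy on chromosome 17 (build GRCm38, chr17:39846353-39848201, plus strand, in the direction of the 18S sequence, although GENCODE annotates the rRNA transcript of CT010467.1 with these bounds on the minus strand), the first 5 lines show the nucleotides with the highest mean share of 18S score among those at least 21 nt apart and within the annotated transcript Gm42418, which starts at nt 606. The sixth line shows a nucleotide listed in all 3 overexpressing libraries and neither non-transfected one.
18S nt 1160 (chr17:39847502-39847522): aaaccaaagtCtttgggttcc
18S nt 829 (chr17:39847171-39847191): aattagagtgTtcaaagcagg
18S nt 1125 (chr17:39847467-39847487): gcgttattccCatgacccgcc
18S nt 1090 (chr17:39847432-39847452): tccaaccataAacgatgccga
18S nt 1255 (chr17:39847597-39847617): ttaatttgacTcaacacggga
18S nt 1069 (chr17:39847411-39847431): acgatcagatAccgttgtagt

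Gm23388, a 57-nt gene annotated as a miRNA (minus strand, chr8:85112012-85112068), held the position with the highest scores among those seen only with overexpression. In its first line the capitals mark the 3 nucleotides listed in all 5 libraries (nt 20, 31 and 32 of the gene), and in its second line the nucleotide listed only with overexpression (nt 21). The line of Gm25911, a similar annotated miRNA gene (minus strand, chr1:167340369-167340424), has its highest nucleotide, nt 31, in capitals.
Gm23388: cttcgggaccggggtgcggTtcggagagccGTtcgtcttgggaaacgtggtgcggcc
Gm23388: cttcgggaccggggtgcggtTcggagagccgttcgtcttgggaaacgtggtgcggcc
Gm25911: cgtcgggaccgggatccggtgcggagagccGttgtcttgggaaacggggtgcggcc

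The mRNA of the overexpressed gene was examined first. Denr itself had no site in overexpressing replicates 1 and 2 and 1 intronic site in replicate 3. It had no site in non-transfected replicate 1, and 4 sites in its coding sequence (CDS), of summed score 7, in replicate 2. The sites of Denr thus did not set the overexpressing lists apart, and since the lists measure crosslinked RNA and not its abundance, they do not check the transfection. No site was listed in any of the 5 libraries for the partner Mcts1, for Eif2d, a single-chain relative of the DENR–MCTS1 complex, for the core clock gene Clock, for Klhdc8a, Etaa1, Map2k5 or Lrrc28, or for Atf4 and Atf5, transcription factors whose translation is governed by upstream reading frames. Of 12 fibroblast marker genes 11 had a site in at least 1 list, whereas none of 5 epithelial, 5 macrophage and 3 endothelial markers had any.

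The first comparison divided the sites into 17 RNA classes that exclude each other. Most of the score of every library lay on the 18S copy and in the dense windows, 2000-nt stretches outside rRNA loci with at least 10 sites in each of the 5 lists. Neither group was set apart by these classes. On 18S rRNA the share of score was 25.3%, 21.2% and 22.7% with overexpression and 15.5% and 30.1% without it. The 2 non-transfected libraries lay on either side of the 3 overexpressing ones, with means of 23.1% ± 2.03 (SD, n = 3) and 22.8% ± 10.4 (SD, n = 2) and an exact permutation p of 1.00, two-sided. By number of sites, 18S rRNA held 10.4%, 4.80% and 6.18% of the overexpressing lists and 8.21% and 10.5% of the others, a difference of -2.22 percentage points (exact permutation p = 0.400) within which the groups again overlapped.

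**Figure D1:**
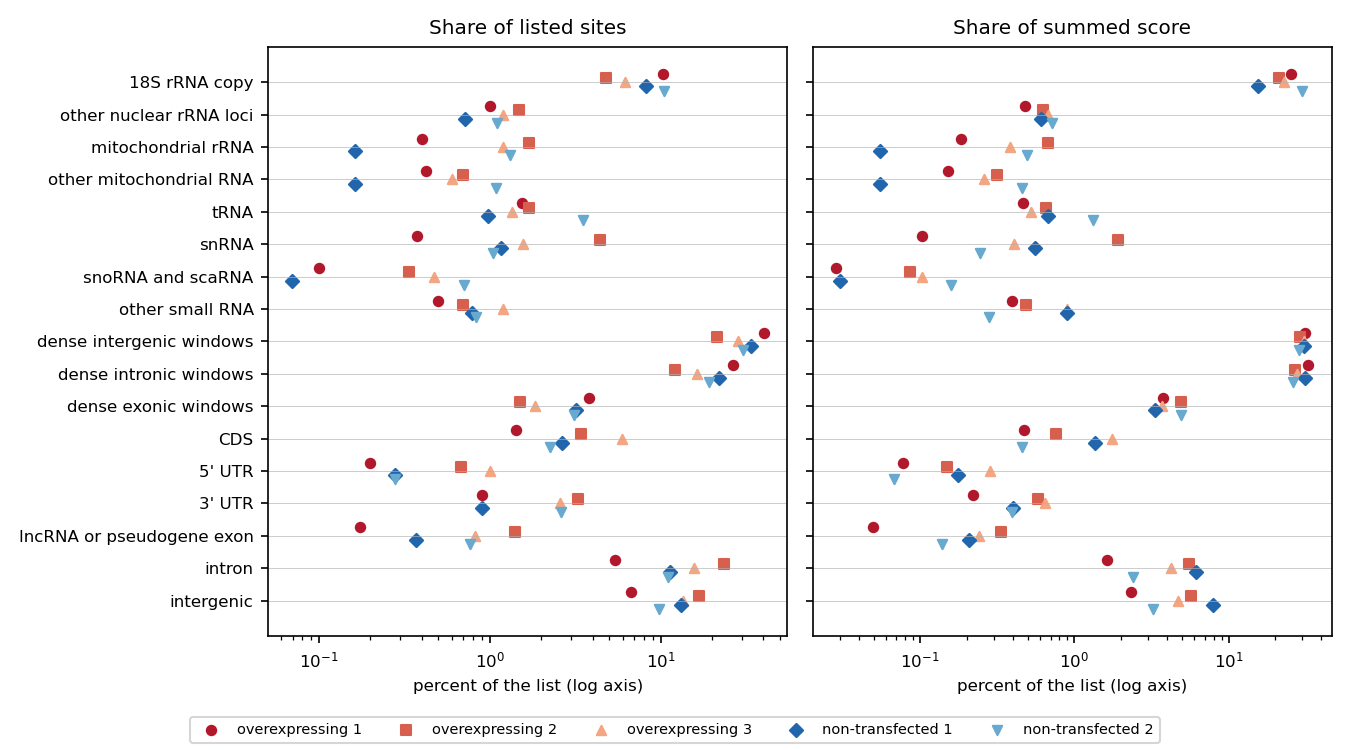
Percent of listed sites (left) and of summed score (right) in each of 17 RNA classes, on log axes, with 1 point per library (red shades, 3 overexpressing; blue shades, 2 non-transfected). In every class but 1 the groups overlap in both panels; for tRNA the 3 overexpressing libraries lie at 0.466% to 0.650% of the score, below 0.670% and 1.32%.

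The dense windows differed as little. Each had to hold at least 10 sites in every list, so a stretch dense in 1 group alone could not be among them. The likeness therefore does not extend to such stretches. Intergenic windows took 31.5%, 29.1% and 30.9% of the score with overexpression and 30.9% and 28.4% without, and intronic windows took 32.9%, 27.0% and 27.6% against 31.3% and 26.1%. Dense exonic windows, most of whose score came from 1 gene, Lars2 (mitochondrial leucyl-tRNA synthetase), took 4.13% ± 0.677 (SD, n = 3) against 4.13% ± 1.13 (SD, n = 2). As shares of sites these windows were more variable, since short lists concentrated on them: the intergenic windows held 40.3% of the shortest overexpressing list but 21.5% of the longest one.

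The 5 libraries can be divided in only 10 ways, which limits a two-sided p to 0.2 at best. No class could therefore pass 0.05, and after the Benjamini-Hochberg adjustment over 17 classes the p was 1.00 for every class and both measures. The count of classes in which the groups did not overlap is given instead. By share of sites it was 0 of 17 in either direction (0% above, 0% below). By share of score no class was higher in all 3 overexpressing libraries (0%) and 1 of 17 (5.88%) was lower, which was tRNA.

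tRNA sites took 0.466%, 0.650% and 0.521% of the score with overexpression and 0.670% and 1.32% without it. The difference was -0.448 percentage points (0.546% ± 0.0944 against 0.994% ± 0.459, SD, n = 3 and n = 2), at the smallest p the exact permutation test allows (0.200). It leaned on non-transfected replicate 2, without which it was -0.124. The share of sites did not follow, with 1.55%, 1.70% and 1.35% against 0.971% and 3.51%, so that the non-transfected libraries lay on both sides, and the difference of -0.706 turned to 0.562 when non-transfected replicate 2 was left out.

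Of 20 tRNA isotypes, 0 (0%) had a higher and 5 (25.0%) a lower share of score in all 3 overexpressing libraries than in both others. These were the aspartate, isoleucine, leucine, serine and valine tRNAs. The valine tRNAs, for example, took 0.0245%, 0.0642% and 0.0331% of the score with overexpression and 0.0791% and 0.160% without. Arginine tRNAs, which have the most genes with sites (14), took 0.0286%, 0.0540% and 0.0417% against 0 and 0.240%, so that the non-transfected libraries held both the lowest and the highest value. Among the 23 tRNA genes with enough sites for the fit described below, 19 had a lower and 4 a higher fitted share of score with overexpression, with a median log2 difference of -0.51, whereas of all 190 genes tested 91 were lower and 99 higher with a median of 0.05. Without non-transfected replicate 2 the tRNA genes divided into 12 lower and 11 higher. tRNA sites were counted on either strand, and tRNA genes with the same anticodon can share reads.

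Small nuclear RNA (snRNA) showed the widest range of any small RNA class. It held 15, 718 and 160 sites with overexpression and 50 and 75 without, which is 0.102%, 1.91% and 0.406% of the score against 0.554% and 0.244%. The overexpressing libraries thus held the lowest and the highest share, and the difference of 0.407 percentage points (exact permutation p = 1.00) turned to -0.145 when overexpressing replicate 2 was left out. Of the snRNA positions, 575 lay in 53 genes matching U6, the catalytic snRNA of the spliceosome, 124 in 10 genes matching U2, the snRNA that pairs with the branch point, and the remainder in genes matching U5, U1 and U12.

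The excess in overexpressing replicate 2 was largest for U6, with 551 sites there against 3 and 119 in the other overexpressing lists and 44 and 30 in the non-transfected ones. As shares of score, U6 copies took 0.0164%, 1.48% and 0.299% with overexpression and 0.475% and 0.108% without, and U2 copies 0.0450%, 0.302% and 0.0513% against 0.0304% and 0.0541%. U5, which aligns the exons, was not listed in 1 library of each group (overexpressing replicate 1 and non-transfected replicate 1) and took 0.0829% in overexpressing replicate 2. U12, of the minor spliceosome, was the most even family, at 0.0267% to 0.0409% with overexpression and 0.0487% and 0.0263% without. The overexpressing libraries therefore differed among themselves in U6, U2 and U5 by more than the groups did.

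**Figure D2:**
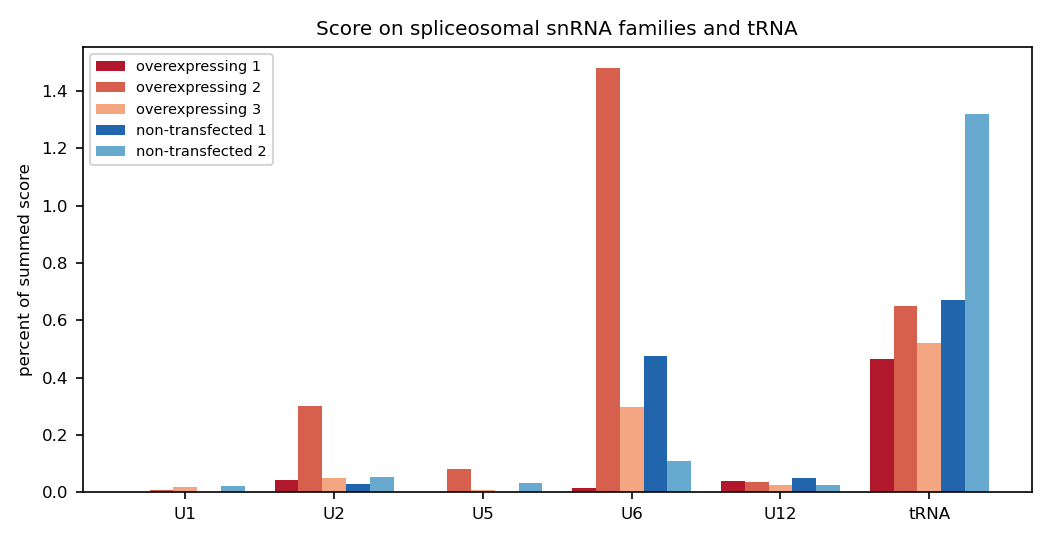
Percent of summed score on genes matching each spliceosomal snRNA family and on tRNA, with 1 bar per library (red shades, 3 overexpressing; blue shades, 2 non-transfected). U6, U2 and U5 are highest in overexpressing replicate 2, while tRNA is highest in non-transfected replicate 2 at 1.32%.

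The parts of mRNAs were minor classes. CDS held 1.42%, 3.43% and 5.95% of the sites with overexpression and 2.66% and 2.25% without, and 5′ UTRs held 0.199%, 0.675% and 1.01% against 0.278% and 0.278%. In both, overexpressing replicate 1 lay below and replicates 2 and 3 above the non-transfected pair. By score the CDS took 0.470%, 0.755% and 1.74% against 1.36% and 0.459%, and the 5′ UTR 0.0777%, 0.150% and 0.282% against 0.177% and 0.0673%. The 3′ UTR held 0.897%, 3.29% and 2.58% of the sites against 0.902% and 2.62%, and introns 5.43%, 23.4% and 15.7% against 11.4% and 11.1%. Mitochondrial rRNA ranged from 0.184% to 0.671% of the score with overexpression and was 0.0548% and 0.493% without, and small nucleolar RNAs ranged from 0.0286% to 0.103% against 0.0304% and 0.158%. In all of these the overexpressing range took in at least 1 of the non-transfected libraries.

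How far libraries of 1 group differed from each other was set beside how far they differed between groups. The share of score that would have to change class to turn one library into another was 5.57 to 12.4 percentage points within the overexpressing group and 9.03 to 12.7 percentage points between libraries of different groups, and it was larger between the 2 non-transfected libraries than in any other pair. For shares of sites it was 16.3 to 40.9 within the overexpressing group, 13.8 to 27.4 between libraries of different groups and 10.1 between the 2 non-transfected libraries. At the 1925 positions listed in all 5 libraries, the SD of the log2 difference in score share was 1.08 to 1.33 within the overexpressing group, 1.62 between the non-transfected libraries and 1.14 to 1.49 across groups. Libraries of different groups thus differed no more than the 2 non-transfected libraries did by score, and no more than the most distant overexpressing pair did by sites.

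The 18S rRNA, the RNA of the subunit to which DENR binds, was then followed along its length in bins of 100 nt. The bin from nt 1101 to 1200 held the largest part of the 18S score in every library, 47.3%, 28.8% and 38.0% with overexpression and 41.1% and 29.5% without. No library listed a site from nt 701 to 800 or from nt 1801 to 1849. From nt 901 to 1000 sites were listed in overexpressing replicate 2 alone (20 sites, 2.18% of its 18S score). Of 19 bins, 1 (5.26%) was higher in all 3 overexpressing libraries, from nt 401 to 500 (1.12%, 1.24% and 0.966% against 0 and 0.913%), and 1 (5.26%) was lower, from nt 1501 to 1600 (2.80%, 3.71% and 3.55% against 4.29% and 5.65%).

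**Figure D3:**
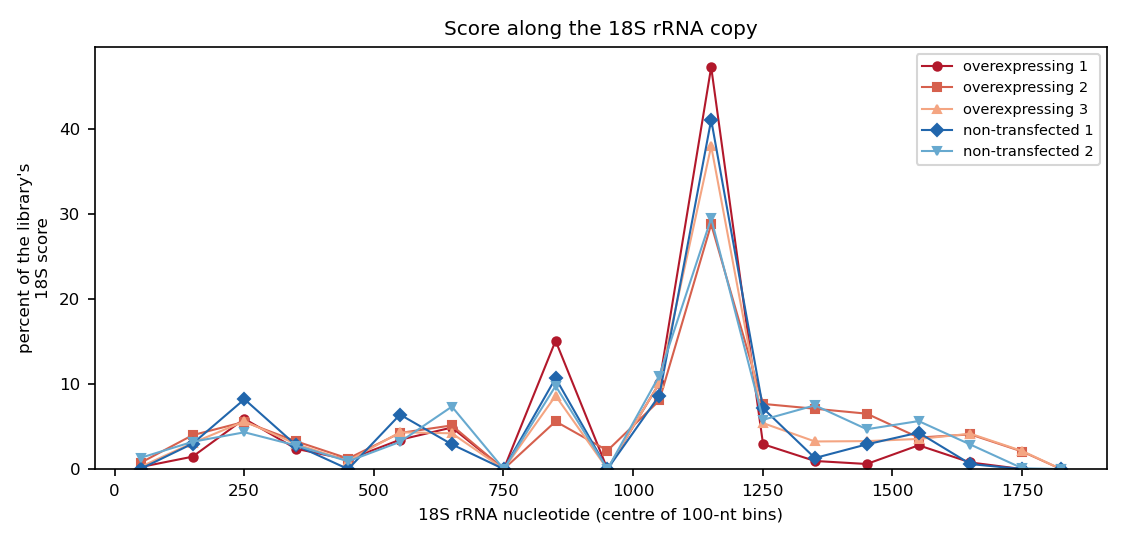
Percent of each library's 18S score in successive 100-nt bins of the 18S rRNA, plotted at the bin centres (red shades, 3 overexpressing libraries; blue shades, 2 non-transfected). All 5 profiles peak in the bin from nt 1101 to 1200, at 28.8% to 47.3%.

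Of the 18S nucleotides with the highest shares shown above, all but nt 1255 overlapped between the groups as shares of 18S score. Nucleotide 1255 took 1.31%, 1.17% and 2.16% with overexpression against 1.10% and 0.699% without. At nt 1160 the scores were 488, 1281 and 1564 with overexpression and 201 and 611 without, or 7.90%, 3.87% and 7.37% of the library's 18S score against 7.90% and 2.97%. This was the highest 18S nucleotide in overexpressing replicates 2 and 3 and in non-transfected replicate 1. In the remaining pair of libraries nt 829 was highest, with scores of 500 in overexpressing replicate 1 and 869 in non-transfected replicate 2, and it also reached 947 and 158 in overexpressing replicate 3 and non-transfected replicate 1. Overexpressing replicate 2 did not list nt 829, although it listed the nucleotides on both sides. It was the only position with a score of at least 100 in 4 lists that was missing from the remaining one.

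At nt 1125 the scores were 368, 838 and 711 against 103 and 770, and at nt 1090 they were 155, 611 and 451 against 71 and 491. As shares of 18S score both overlapped between groups, with 2.53% to 5.96% against 4.05% and 3.74% for the first and 1.85% to 2.51% against 2.79% and 2.38% for the second. The base under the sites, in the 1244 nt of 18S sequence that the annotated transcript covers, was also alike. Uridine, printed as T, took 29.4%, 23.8% and 30.2% of this score with overexpression and 28.7% and 26.6% without, and made up 22.0% of the sequence. Guanosine took 15.3%, 21.0% and 15.6% against 16.5% and 21.3%, below its 29.7% of the sequence in all 5 libraries.

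Next, 190 genes with at least 10 sites over the 5 lists were compared, by limma on log2 shares per 10000. No gene passed an adjusted p of 0.05 for the share of score, either higher (0%) or lower (0%), and the smallest adjusted p was 0.971. For the share of sites the same held (0% higher, 0% lower), with a smallest adjusted p of 0.994. At an unadjusted p under 0.05 there were 0 genes by score and 2 by sites, Gm22063 (higher) and Fn1 (lower). All sites of Gm22063 were from overexpressing libraries, so it passed the filter of 10 sites through the group in which it is high, and its p is no support for a difference. The median SE of a log2 difference was 0.83 by score and 1.37 by sites, so a count of 0 does not show that the shares were equal. When genes with fewer sites were also kept, 1 of 4435, the 18S copy, was called in each fit, at log2 differences of 0.09 by score and -0.46 by sites.

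**Figure D4:**
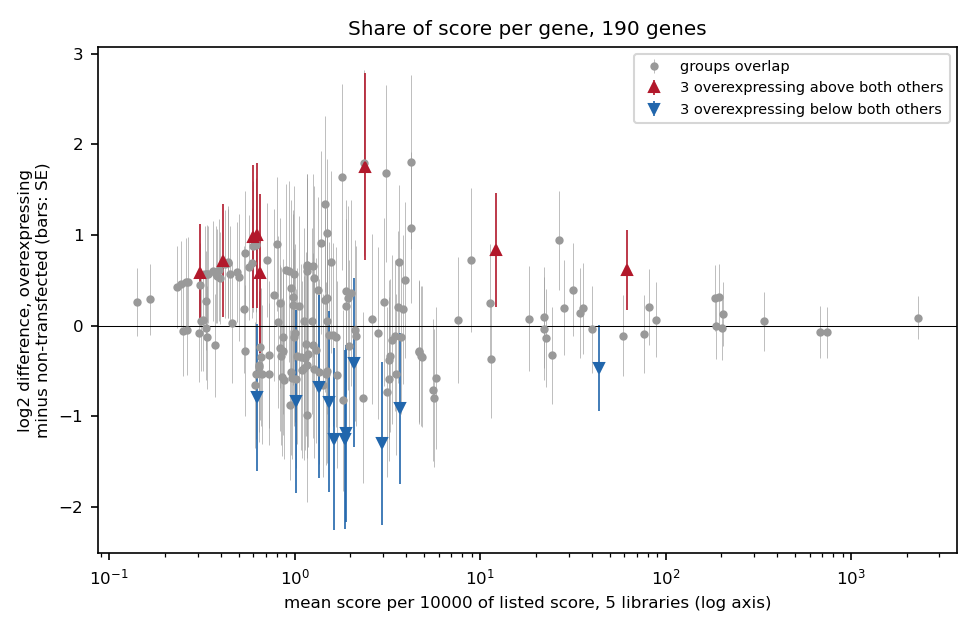
Log2 difference in share of score (overexpressing minus non-transfected; bars, SE) against the mean score per 10000 of listed score on a log axis, for 190 genes. Red triangles are the 8 genes whose 3 overexpressing values exceed both non-transfected ones, blue triangles the 11 in the opposite order, and grey points overlap between groups.

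The genes with the highest mean shares of score differed by less than their SE. The log2 difference was -0.07 (SE 0.28) for Cmss1, and similarly small for Cdk8, a kinase of the Mediator complex (-0.07, SE 0.29), Lars2 (0.05, SE 0.32) and Camk1d, a calmodulin-dependent kinase (0.13, SE 0.35). The sites of these genes lay wholly or almost wholly in dense windows. In Cmss1 the scores were 2398, 8551 and 6383 with overexpression and 1289 and 4953 without, which is 980, 549 and 682 per 10000 of listed score against 785 and 725. The others in this set were the 18S copy (0.09, SE 0.24), Gm19951 (-0.02, SE 0.35), Il31ra, an interleukin receptor (0.32, SE 0.36), Gphn, the scaffold protein gephyrin (-0.00493, SE 0.36) and Spata5 (0.07, SE 0.41). None of them separated the groups.

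By share of score the 3 overexpressing libraries lay above both others for 8 of 190 genes (4.21%) and below both for 11 (5.79%). By share of sites this was so for 7 (3.68%) and 9 (4.74%). The genes with the largest differences among these are described here, with no test. Gm22063, a U6 copy, had the largest fitted upward difference of the 8 by score, with a score of 4, 157 and 3 on 3, 32 and 3 sites with overexpression and none without. No fold is given where a group is listed at 0. Overexpressing replicate 2 held most of these sites, as it did of all U6 copies, which are so alike that a short read cannot always be assigned to 1 of them. Gm22307, another U6 copy, had scores of 0, 260 and 37 against 1 and 0, so that the groups overlapped.

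Eef1a1, which encodes the elongation factor that delivers aminoacyl-tRNA to the ribosome, had 2, 9 and 6 sites with overexpression and none without. All 6 sites of overexpressing replicate 3 lay in the CDS and all sites of the other 2 libraries in introns, and no position was listed in all 3. Sparc, a secreted matrix protein, had 3, 5 and 2 sites and none without, all of them in the 3′ UTR in replicate 1 and in the CDS or introns in replicates 2 and 3. Clasp2, which stabilises microtubules, had 1, 15 and 3 intronic sites and Dhx32, a putative helicase, 2, 6 and 2, and neither had any without overexpression. Like Gm22063, these 4 genes passed the filter on sites through the overexpressing libraries alone. The pre-rRNA copy on chromosome 17, outside its 18S part, was also above, at 9.81, 22.4 and 13.8 per 10000 of listed score against 7.91 and 7.46 (log2 0.84, SE 0.63). By share of sites its groups overlapped, at 49.9, 106 and 60.7 per 10000 against 18.5 and 54.3. Its class, other nuclear rRNA loci, had a lower mean share of score with overexpression (0.590% against 0.657%), and there too the groups overlapped.

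In the opposite order stood Fn1, which encodes fibronectin, with 0, 6 and 6 sites with overexpression and 4 and 14 without (log2 by sites -2.18, SE 1.03, by score -1.25, SE 1.01). The valine tRNA genes n-TVcac6 and n-TVaac3 had scores of 0, 59 and 15 against 8 and 31, and of 0, 21 and 11 against 3 and 34, with log2 differences of -1.30 (SE 0.90) and -1.25 (SE 0.99). The serine tRNA gene n-TScga2 had 7, 25 and 28 against 7 and 47 (-0.91, SE 0.83). These are summed scores of lists of unequal length, and the shares did not overlap. Slc29a3, a nucleoside transporter, was listed with intronic sites at a log2 difference of -1.19 (SE 0.97). By sites, Klhl32 (-1.61, SE 1.07), the splicing regulator Hnrnpl (-1.53, SE 1.39), the U6 copy Gm22628 (-1.31, SE 1.05) and n-TVaac3 (-1.19, SE 1.45) followed. Most of these had no site in overexpressing replicate 1, the shortest list.

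Groups of genes tied to translation were counted next. Of 32 small-subunit ribosomal protein genes 11 had a site, of 49 large-subunit genes 20, of 55 initiation factor genes 24 and of 13 elongation factor genes 6. An exonic site was listed for only 2 of the small-subunit and 2 of the large-subunit genes, and for 12 initiation and 5 elongation factor genes. By library, 0, 6 and 3 small-subunit genes were listed with overexpression and 0 and 3 without. For the large subunit it was 1, 16 and 6 genes against 2 and 2. For initiation factors it was 1, 14 and 11 genes against 2 and 4, and for elongation factors 1, 4 and 6 against 1 and 0. In each of these groups overexpressing replicates 2 and 3 named at least as many genes as either non-transfected library. Overexpressing replicate 1, the shortest list, named no more than non-transfected replicate 1 did. List length had this order too, with 4012, 16137 and 10209 sites against 4324 and 7185. So had the genes of any kind listed in 1 library alone, 59, 1827 and 886 against 136 and 273. The order is therefore not particular to genes tied to translation.

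From these lists only Rpl7a, Eif4g2 and Eef1a1 had enough sites for the fit and none passed. Rpl7a, of the large subunit, had 3, 7 and 7 sites against 0 and 8, all intronic. Eif4g2, an initiation factor homologous to the eIF4G scaffold, had 0, 7 and 5 against 3 and 0. The mitochondrially encoded mRNAs had sites in 0, 1 and 2 of 13 genes with overexpression and in none without. Mitochondrial ribosomal protein genes were listed for 0, 8 and 6 of 78 genes against 2 and 2, and replication-dependent histone genes for 0, 3 and 2 of 67 against 0 and 1.

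Abundant mRNAs of fibroblasts were examined in the same way. Of 12 collagen and matrix genes 10 had a site, 3, 8 and 10 by library with overexpression and 5 and 5 without. Col1a2, a chain of type I collagen, had 0, 67 and 12 sites against 1 and 9, of which 0, 25 and 5 against 0 and 9 lay in exons. Col1a1, its partner chain, had 2, 9 and 8 against 0 and 4, and Col3a1 4, 7 and 13 against 2 and 1. Actb, encoding β-actin, had 0, 21 and 4 sites against 0 and 13, and Vim, an intermediate filament protein of mesenchymal cells, 0, 7 and 6 against none. Of 30 genes whose symbols begin with Hsp, the heat shock proteins and the matrix gene Hspg2, 0, 9 and 4 were listed against 3 and 1. Of 5 nuclear-retained long non-coding RNAs 2 had a site, Malat1 among them with 0, 1 and 2 sites against 2 and 0. None of the tested members of these groups passed the fit (smallest adjusted p 0.971 by score and 0.994 by sites, limma).

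At the level of single positions, 1925 were listed in all 5 libraries and were tested by limma. None passed an adjusted p of 0.05, higher (0%) or lower (0%), with a smallest adjusted p of 0.997. At an unadjusted p under 0.05 there were 19, of which 8 were higher with overexpression. All 3 overexpressing shares lay above both others at 95 positions (4.94%) and below both at 175 (9.09%). The position furthest apart upwards, in a dense intergenic window at position 82955295 of chromosome 10 (minus strand), had scores of 8, 24 and 73 with overexpression and 1 and 2 without (log2 3.01, SE 0.86). The next, in another such window at position 80441492 of chromosome 12 (minus strand), had 10, 28 and 34 against 1 and 2 (log2 2.82, SE 0.80).

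In the other direction stood 18S nt 1165, with scores of 2, 73 and 21 against 23 and 58 (log2 -2.41, SE 0.77), and nt 382, with 2, 1 and 1 against 2 and 8 (log2 -2.75, SE 1.17). Nucleotide 1165 lies 5 nt downstream of nt 1160, the highest 18S nucleotide, at which the groups overlapped. Among the 253 18S positions tested, 10 were above and 28 below, and among the 831 in dense intergenic windows 36 were above and 67 below. Over all 1925 positions 95 (4.94%) were above and 175 (9.09%) below, so an excess below was not particular to these classes. The median log2 difference was -0.07 for 18S positions and -0.06 for all 1925.

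The last comparison counted positions listed in every library of 1 group and none of the other. Of 23263 positions, 228 (0.980%) were listed in all 3 overexpressing libraries and neither non-transfected one, and 28 (0.120%) in both non-transfected libraries and no overexpressing one. The 228 made up 7.36% of the 3096 positions in all 3 overexpressing lists, the rest of which were in both (1925) or 1 (943) of the non-transfected lists. The 28 made up 1.07% of the 2617 positions in both non-transfected lists. The counts depended on list length and on single libraries. With every list cut to its 4012 highest sites they were 80 and 62. Leaving out a library drops 1 condition: the first count became 1448 without overexpressing replicate 1, 350 without replicate 3, and 381 and 1018 without non-transfected replicates 1 and 2. The second became 123 and 58 without overexpressing replicates 2 and 3, and 1728 and 821 without non-transfected replicates 1 and 2.

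**Figure D5:**
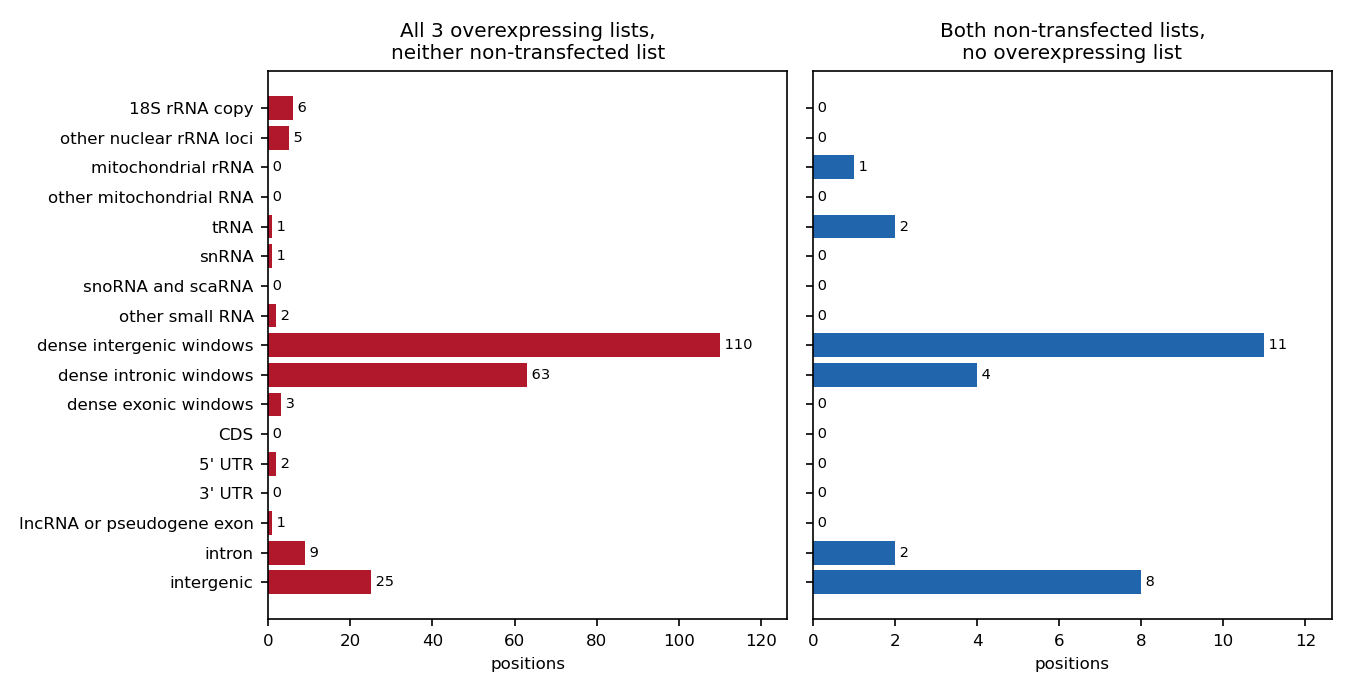
Number of positions per RNA class listed in all 3 overexpressing libraries and neither non-transfected one (left, 228 in all) and in both non-transfected libraries and no overexpressing one (right, 28 in all). The axes differ in scale; dense intergenic windows hold the most in both, 110 and 11.

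Many positions of both sets lay where sites were dense, but this was not particular to them. Of positions in every overexpressing list, 7.36% were in neither non-transfected one. In dense intergenic and dense intronic windows this was 8.20% and 6.91%. The share was not uniform over the other classes. It was 15.6% in other intergenic sequence and 16.1% in introns, but 1.57% on 18S rRNA and 2.16% in dense exonic windows. Of positions in both non-transfected lists, 1.07% were in no overexpressing one. In dense intergenic and dense intronic windows this was 1.03% and 0.539%, and it was higher in other intergenic sequence and in introns. Of the 228, 110 were in dense intergenic windows, 63 in dense intronic windows, 25 in other intergenic sequence, 9 in introns and 6 on 18S rRNA. Of the 28, 11 were in dense intergenic windows, 8 in other intergenic sequence and 4 in dense intronic windows. They were mostly low and close to positions of the other group. The lowest score among the listing libraries was 1 for 83.8% of the 228 and for 85.7% of the 28, and 69.3% and 75.0% lay within 1 nt of a position that the other group did list. For comparison, of all 14371 positions listed in any overexpressing but no non-transfected library 13.9% did so. Within 15 nt of such a position lay 91.7% of the 228 and 89.3% of the 28. When a site within 15 nt counted as listed in both groups alike, which also admits positions outside these sets, the counts were 142 and 4.

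The position with the highest lowest score was nt 21 of Gm23388, at position 85112048 of chromosome 8. It had scores of 11, 14 and 66 with overexpression and was in neither non-transfected list. The nucleotide before it, nt 20, was listed in all 5 libraries, with 9, 92 and 43 against 8 and 17. So was nt 31, with 11, 78 and 109 against 33 and 16. The similar gene Gm25911 had its highest score at nt 31 too, with 0, 64 and 80 with overexpression and no listing of that nucleotide without, so the groups met at 0.

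On 18S rRNA the 6 positions were nt 278, 288, 303, 363, 543 and 1069. Their scores were 9, 17 and 28 at nt 278, 3, 10 and 3 at nt 303, and 2, 2 and 12 at nt 1069, with none in either non-transfected list. All 6 lay within 4 nt of a site that a non-transfected library listed. They were 1.57% of the 383 18S positions in all 3 overexpressing lists, and no 18S position was in both non-transfected lists alone. Nucleotide 1069 precedes the peak at nt 1090.

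Of the 228, 2 (0.877%) lay in a 5′ UTR, the part of the mRNA that carries upstream reading frames, and none in a CDS. Over all 23263 positions the 5′ UTR held 0.984%. Only 4 positions in a 5′ UTR and 2 in a CDS were in all 3 overexpressing lists. Of those 4, 2 (50.0%) were in neither non-transfected list, against 7.36% over all classes, which rests on very few positions. None of the 228 fell in the 3′ UTR class, but 2 of the 3 in dense exonic windows lay in the annotated 3′ UTR of Lars2. The first 5′ UTR position, in Nek11, a kinase of the NIMA family, was 105395386 of chromosome 9 (minus strand). It had a score of 3 in each overexpressing library, and the nearest non-transfected site was 32689 nt away. The other, in the transcription factor gene Zfhx3 at position 108715041 of chromosome 8 (plus strand), had 2, 3 and 2 and lay 1 nt from a non-transfected site. Among the 37 positions at which all 3 scores were at least 2, another was in an intron of Rpl7a, at position 26912848 of chromosome 2, with 5, 2 and 3. Over all 228, the genes with the most positions were Gm19951 (10), Gm26561 (7), and Cmss1, Tmem56 and the 18S copy (6 each). All but the 18S copy lay in dense intronic windows.

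Of the 28 positions in the reverse set none exceeded a score of 3. The lowest score was 2 at 4 of them, in intergenic sequence at position 71004591 of chromosome 11 (3 and 2), 22137494 of chromosome 17 (2 and 3) and 67839566 of chromosome 10 (2 and 2), and in an intron of the cation channel gene Trpm3 at position 22852089 of chromosome 19 (2 and 2). The 3 intergenic ones lay 279746, 675596 and 1275903 nt from the nearest overexpressing site, and the one in Trpm3 1 nt from it. Trpm3 held 2 of the 28, and 1 each was in mt-Rnr2, the large mitochondrial rRNA, and in the tRNA genes n-TEctc9 and n-TMcat16. n-TEctc9 also held 1 of the 228.

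Counted by gene, 27 of 4435 (0.609%) had sites in all 3 overexpressing libraries and in neither non-transfected one, and 8 (0.180%) had sites in both non-transfected libraries alone. Of the 27, 25 were protein-coding, 12 rested on 5 or fewer sites in all and 8 had a position listed in all 3 libraries. Gm22063, Clasp2, Eef1a1, Dhx32 and Sparc had the most sites. With fewer sites came Ddx5, an RNA helicase (3, 5 and 1), Stat3, a transcription factor activated by cytokines (2, 3 and 1), Il6st, the signalling subunit of interleukin-6 receptors (1, 4 and 1) and Gnas, a G protein subunit (1, 4 and 1). The 8 of the reverse set included Cyth1, Ech1, Mta2, Nolc1, Arid2, Atp5g2 and Pacsin2. Each of the 8 had 5 or fewer sites, none shared a position between the 2 libraries, and Cyth1 had the most with 1 and 4.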

How the data were processed

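Crosslink sites from 5 iCLIP libraries of NIH3T3 cells were used, 3 labelled Denr overexpressing and 2 labelled non-transfected. The authors mapped reads to GRCm38 (mm10), removed reads with the same molecular identifier and start, and called sites in each library with iCount, using a 15-nt flank. The methods name Bowtie and the submitters' processing notes Bowtie2. The methods state that regions were treated as one, whereas the header lines of 4 of the 5 deposited lists say separately. Each deposited list gives a whole-number score per site, whose sign is the strand. The score is not scaled to library size and was used as its absolute value.

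Sites were assigned with bedtools 2.31.1 to GENCODE M21 and RefSeq tRNA genes (either strand) in 17 exclusive classes. Dense windows (66 of 2000 nt) held at least 10 sites in every list. Class shares were compared by two-sided exact permutation tests. Genes with at least 10 sites in all (n = 190) were compared on log2(share per 10000 + 1). Positions in all 5 lists were compared on log2(share per 10000), with nothing added. Both used limma 3.58.1 (R 4.3.3, moderated with a trend) and Benjamini-Hochberg adjustment at 0.05. snRNA families came from blastn 2.17.0 (at least 40 nt and 80% identity). Scripts used Python 3.11.15, pandas 2.3.3 and scipy 1.17.1. Fits were also run on simulated data, where changes of log2 size 1 were recovered in 0% of cases in each fit. At log2 size 2, 51.1% were recovered for genes by score, 0% for genes by sites and 24% for positions. Each simulation gave all features 1 spread, whereas fitted SEs ran from 0.236 to 1.03 for genes by score and 0.496 to 1.55 by sites. The recovered percentages therefore do not hold for single features. The fits could miss changes of these sizes.

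The genes named are the 5 with the largest difference in each direction among those whose groups did not overlap, since none passed, the 10 with the highest mean share of score, of which 1 is not reported here, the 5 with most exclusive positions, and Denr with 9 genes of interest. In each exclusive set the 5 positions with the highest lowest score were eligible. Examples within gene lists, isotypes and families, genes with exclusive sites beyond these, and the positions furthest apart were chosen after their values were seen. Members and lists were chosen with earlier results of these data known. Sequences came from GENCODE M21 transcripts. Alternatives left out each library, changed filters, totals, pseudocounts (0.5 and 5), list length and site distance, or added the replicate number.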

Additional observations from a re-analysis of the deposited data

How the results depend on the processing

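Only sites past the authors' threshold are listed and library totals are unknown, so precision is limited by list length and by the spread between 3 and 2 libraries. Under each other setting tried no position passed, and no gene passed except without the filter on sites, where 1 of 4435 was called by score and 1 by sites, both the 18S copy, and the cause was not tested. The genes named by share of sites kept their direction under all of these settings. Their groups did not overlap, so leaving out a library could not turn them. Genes without a non-transfected site could not turn under any setting. The tRNA difference by share of score kept its direction too, with the same limit when libraries were left out. So did that of other nuclear rRNA loci by score (-0.0669 percentage points), whose groups overlapped. By share of sites that of 18S rRNA and the 5′ UTR did so.

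Class differences (percentage points, overexpressing minus non-transfected) turned direction under some settings, and the causes were not tested. By share of sites, keeping scores of at least 10 gave -0.241 for other nuclear rRNA loci, 0.0162 for other mitochondrial RNA, 0.0607 for other small RNA and 2.83 for dense intergenic windows. Lists of equal length gave 0.0499, 0.0955 and 3.07 for the last 3 of these, 1.55 for dense intronic and 0.0540 for dense exonic windows, -2.87 for introns and -2.36 for intergenic sequence. Without dense windows as classes the 3′ UTR was at -0.133 and intergenic sequence at -1.31, and outside rRNA loci and dense windows the latter was at -2.57. Merging sites within 15 nt gave 0.0181 for other mitochondrial RNA, -0.253 for snRNA, -0.143 for lncRNA or pseudogene exons and -4.34 for intergenic sequence. By share of score, keeping scores of at least 10 gave -0.406 for 18S rRNA, -2.41 for dense intronic windows, -0.00130 for the 5′ UTR and 0.0477 for intergenic sequence. Lists of equal length gave -0.278 for the CDS, -0.0182 and -0.0684 for the 5′ and 3′ UTR and -0.0194 for lncRNA or pseudogene exons. Outside rRNA loci and dense windows introns were at 0.500.

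Positions listed only with overexpression and only without it numbered 156 and 5 when a site within 5 nt counted as listed, 142 and 4 within 15 nt, 80 and 62 with lists of equal length, 109 and 8 for scores of at least 2, and 41 and 12 outside rRNA loci and dense windows. Leaving out each library in turn gave 305 to 1448 and 36 to 1728.

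Replicate numbers 1 and 2 occur in both groups. For the 2 such pairs, deviations of same-numbered libraries had correlations over 190 genes of -0.046 and -0.073 by score. By sites these were 0.0085 and -0.052. The deviations of the 2 non-transfected libraries are exact opposites, so these values cannot decide whether same-numbered libraries were handled together. The labels do not say it. The replicate block left 0 genes and 0 positions called. It turned the CDS to -0.0333 by sites, and by score other small RNA to -0.152, the CDS to -0.296 and the 5′ UTR to -0.00793. It also turned the log2 differences of Gphn to 0.0402 and Spata5 to -0.0437. With totals taken outside rRNA loci and dense windows, Cmss1 was at 0.149, Cdk8 at 0.150, Gm19951 at 0.203 and Gphn at 0.218, and with lists of equal length Gm19951 was at 0.0163 and Gphn at 0.0244.

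Leaving out each library in turn gave, for classes by share of sites, -0.228 to 0.932 for mitochondrial rRNA, -0.512 to 0.412 for other mitochondrial RNA, -1.97 to 0.562 for tRNA, -0.130 to 1.91 for snRNA, -0.408 to 0.232 for snoRNA and scaRNA, -0.214 to 0.129 for other small RNA, -7.27 to 2.09 for dense intergenic windows, -6.42 to 0.719 for dense intronic windows, -0.0333 to 2.23 for CDS, -0.362 to 1.35 for 3′ UTR, -0.0691 to 0.550 for lncRNA or pseudogene exon, -0.656 to 8.33 for introns, -1.33 to 3.69 for intergenic sequence. By share of score it gave -7.09 to 7.58 for the 18S copy, -0.0811 to 0.357 for mitochondrial rRNA, -0.215 to 0.187 for other mitochondrial RNA, -0.145 to 0.758 for snRNA, -0.0858 to 0.0418 for snoRNA and scaRNA, -0.310 to 0.310 for other small RNA, -0.406 to 2.05 for dense intergenic windows, -2.12 to 3.05 for dense intronic windows, -0.801 to 0.803 for dense exonic windows, -0.369 to 0.529 for CDS, -0.00793 to 0.103 for 5′ UTR, -0.0288 to 0.113 for lncRNA or pseudogene exon, -2.35 to 1.39 for introns, -3.60 to 1.02 for intergenic sequence. For genes by share of score (log2) it gave -0.301 to 0.117 for Cmss1, -0.283 to 0.137 for Cdk8, -0.205 to 0.301 for Lars2, -3.06e-04 to 0.208 for Camk1d, -0.374 to 0.333 for Gm19951, -0.283 to 0.273 for Gphn, -0.601 to 0.737 for Spata5, -0.390 to 0.571 for the 18S copy.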
